A study of Mus musculus with 4 samples.

Results

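The 50 genes described here encode proteins that run mitosis and the spindle checkpoint. They were taken from a list of symbols, without the kinesins, and all 50 were found among the 23924 genes of an RNA-seq expression matrix, 48 under the listed symbol and 2 under a newer one (*Sgol1* as *Sgo1* and *Sgol2a* as *Sgo2a*). The rule picks them by symbol alone. The study compared tail tip fibroblasts (TTF) of male Tg2087/+ mice (TG), which carry 200 kb of the X-inactivation center with *Xist* in an autosome, with TTF of male +/+ littermates (WT), with 2 libraries for each genotype. All 4 libraries have the strain label C57BL/6J-TgBAC8-2087, and both genotypes had been immortalized with SV40 large T, a viral protein that inactivates the RB and p53 proteins, and were tetraploid. The ages of the mice are not given. Whether WT 1 and WT 2, or TG 1 and TG 2, are separate animals or cultures is not given in the sources used here, so every p-value measures only the spread between these libraries.

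A cell enters mitosis when cyclin B activates the kinase CDK1. Chromosomes then condense and attach to the spindle through their kinetochores, and the spindle checkpoint holds the anaphase-promoting complex (APC/C) back until every kinetochore is attached. The APC/C with its activator CDC20 then marks cyclin B and securin for destruction, which frees separase to cut the cohesin between sister chromatids. Most of these genes are transcribed mainly in the G2 phase and in mitosis. Their promoters are known for CCAAT boxes, bound by the factor NF-Y, and for the cell cycle homology region, TTTGAA, which recruits the MuvB complexes with repressors in quiescent cells and with B-MYB and FOXM1 in cycling cells. RB and its relatives p107 and p130 act on the same promoters, and large T binds each of them.

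These letters were looked for in the promoters of the members. RefSeq promoters of GRCm38.p6, 250 bases before and 50 bases after the gene start, were matched for 42 of the 50 genes. Each motif was searched on both strands, CCAAT also as ATTGG and TTTGAA also as TTCAAA. The windows upstream of the following 5 genes overlap no exon of the GENCODE annotation, which held for 17 members. They are shown because they range from many motif matches to none. Those of *Top2a*, *Cenpf* and *Bub1b* reach a short way into the gene as RefSeq draws it. Matches are in capitals, and each sequence runs 5′ to 3′ on the strand of its gene.

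Ccnb2, chr9:70421555-70421804, minus strand: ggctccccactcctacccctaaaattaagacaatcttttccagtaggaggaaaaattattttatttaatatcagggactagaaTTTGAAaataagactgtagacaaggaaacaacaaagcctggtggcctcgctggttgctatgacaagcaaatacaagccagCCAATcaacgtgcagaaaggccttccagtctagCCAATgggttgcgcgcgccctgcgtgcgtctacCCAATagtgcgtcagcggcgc
Top2a, chr11:99024190-99024439, minus strand: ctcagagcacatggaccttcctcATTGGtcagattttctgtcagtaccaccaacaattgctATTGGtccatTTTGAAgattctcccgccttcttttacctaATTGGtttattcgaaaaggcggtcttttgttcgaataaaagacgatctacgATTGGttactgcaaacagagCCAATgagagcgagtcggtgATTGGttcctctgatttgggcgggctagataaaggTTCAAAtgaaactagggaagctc
Cenpf, chr1:189688087-189688336, minus strand: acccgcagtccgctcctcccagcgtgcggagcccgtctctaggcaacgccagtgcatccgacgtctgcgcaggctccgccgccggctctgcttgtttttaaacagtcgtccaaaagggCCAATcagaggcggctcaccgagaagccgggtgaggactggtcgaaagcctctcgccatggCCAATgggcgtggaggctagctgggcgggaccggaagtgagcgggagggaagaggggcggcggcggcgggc
Bub1b, chr2:118597961-118598210, plus strand: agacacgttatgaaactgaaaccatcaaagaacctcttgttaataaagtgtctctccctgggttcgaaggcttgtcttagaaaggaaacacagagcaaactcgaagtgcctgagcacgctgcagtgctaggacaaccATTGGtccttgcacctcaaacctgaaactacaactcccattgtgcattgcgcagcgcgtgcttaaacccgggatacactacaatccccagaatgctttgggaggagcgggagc
Mad2l1, chr6:66534971-66535220, plus strand: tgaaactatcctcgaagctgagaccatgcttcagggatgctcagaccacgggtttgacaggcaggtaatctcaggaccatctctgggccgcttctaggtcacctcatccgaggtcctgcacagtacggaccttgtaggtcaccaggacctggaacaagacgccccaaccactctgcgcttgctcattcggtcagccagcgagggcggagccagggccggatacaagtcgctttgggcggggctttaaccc

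The 250 bases upstream of *Top2a*, the topoisomerase that untangles sister chromatids, held 6 CCAAT matches and 2 TTTGAA matches, whereas those of *Mad2l1*, a checkpoint protein, held 0 of either. Over the 300-base promoters, CCAAT was present in 73.8% of the 42 members, compared with 39.5% of 9196 tested genes and 37.9% of all 27025 promoters. TTTGAA was found in 61.9% of the members, against 11.5% of the tested genes and 18.1% of all promoters. Both motifs stood together in 24 members (57.1%), against 4.93% of the tested genes, and 9 members (21.4%) held neither motif. Those 9 were *Birc5*, *Mad2l1*, *Melk*, *Mybl2*, *Ncaph*, *Nuf2*, *Nusap1*, *Plk4* and *Pttg1*. For *Pttg1* the window lies inside the gene as RefSeq draws it, so its letters are not shown, and its lack of motifs applies to that window only. A match is a description of the sequence, and factor binding was not measured here.

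Expression was given as FPKM, that is, fragments corrected for the length of the gene and the depth of the library, so levels can be compared between genes. The depth, worked out from the FPKM values, was 9465712 reads for WT 1 and 14639946 for WT 2, and 11923758 for TG 1 and 11063020 for TG 2. *Xist*, the gene carried by the transgene, was at 0 and 0.108 FPKM in the WT libraries and at 2.31 and 2.28 in the TG libraries, in accord with the labels. Of the 10 fibroblast markers, *Vim*, *Col1a1*, *Col1a2*, *Thy1*, *Pdgfrb* and *Col3a1* were above 25 FPKM in every library. *Pdgfra* did not exceed 1.13 FPKM. *Dcn* was at 0 in WT and at 0.0429 and 0.8785 FPKM in TG. *Fap* was at or near 0 and *Lum* was listed at 0 in all. The summed levels of the 10 were 3920 to 4342 FPKM in WT and 3677 to 3777 in TG, and *Col1a1* (log2 fold change -0.82, adjusted p = 0.0491) and *Pdgfrb* (-0.96, adjusted p = 0.0165) were lower in TG. *Col1a2*, *Col3a1* and *Thy1* were also lower in both TG libraries, and *Vim* (0.15) and *Pdgfra* (1.08) were higher in both. None of these had an adjusted p under 0.05. The summed keratinocyte, endothelial and skeletal muscle markers did not exceed 3.15 FPKM in any library. Among the 5 blood cell markers *Cd68* had 5.12 to 12.1 FPKM and the others were listed at 0. The part of these marker differences in the results below was not tested.

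TG was compared with WT by limma on log2(FPKM + 0.5) over 11524 genes whose mean FPKM was 0.5 or more. A gene was called when its Benjamini-Hochberg adjusted p was under 0.01 and its log2 fold change was 1 or more in either direction. All 50 members passed the filter, which used the mean of all 4 libraries. All values below are FPKM levels or log2 fold changes (TG minus WT) from this fit.

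The mitosis genes were well expressed in both genotypes. Their median level was 31.7 FPKM, against 10.4 FPKM for all tested genes, and 28 of the 50 were in the top 25% of these genes. In 44 of them every library was above 10 FPKM. The highest was *Cdc20*, the activator of the APC/C, with a mean of 364.9 FPKM, followed by *Ube2c*, *Ccna2*, *Bub3* and *Tpx2*. The lowest was *Aspm*, a spindle pole protein, with 5.87 FPKM, preceded by *Sgo2a*, *Cenpf*, *Espl1* and *Bub1*. Between 212 and 8867 reads stood behind each value. Together the 50 genes took 0.478% to 0.547% of all FPKM in a library, with sums of 2353 and 2361 FPKM in WT 1 and WT 2 and 2780 and 2770 in TG 1 and TG 2. Both sums were higher in TG than in either WT library. The sums over all tested genes were also higher in both TG libraries. They were 4.921e+05 and 4.654e+05 FPKM in WT 1 and WT 2 and 5.072e+05 and 5.182e+05 in TG 1 and TG 2. The RNA came from bulk cultures, so a different share of cells in mitosis and a different amount of RNA per mitotic cell cannot be told apart.

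**Figure D1:**
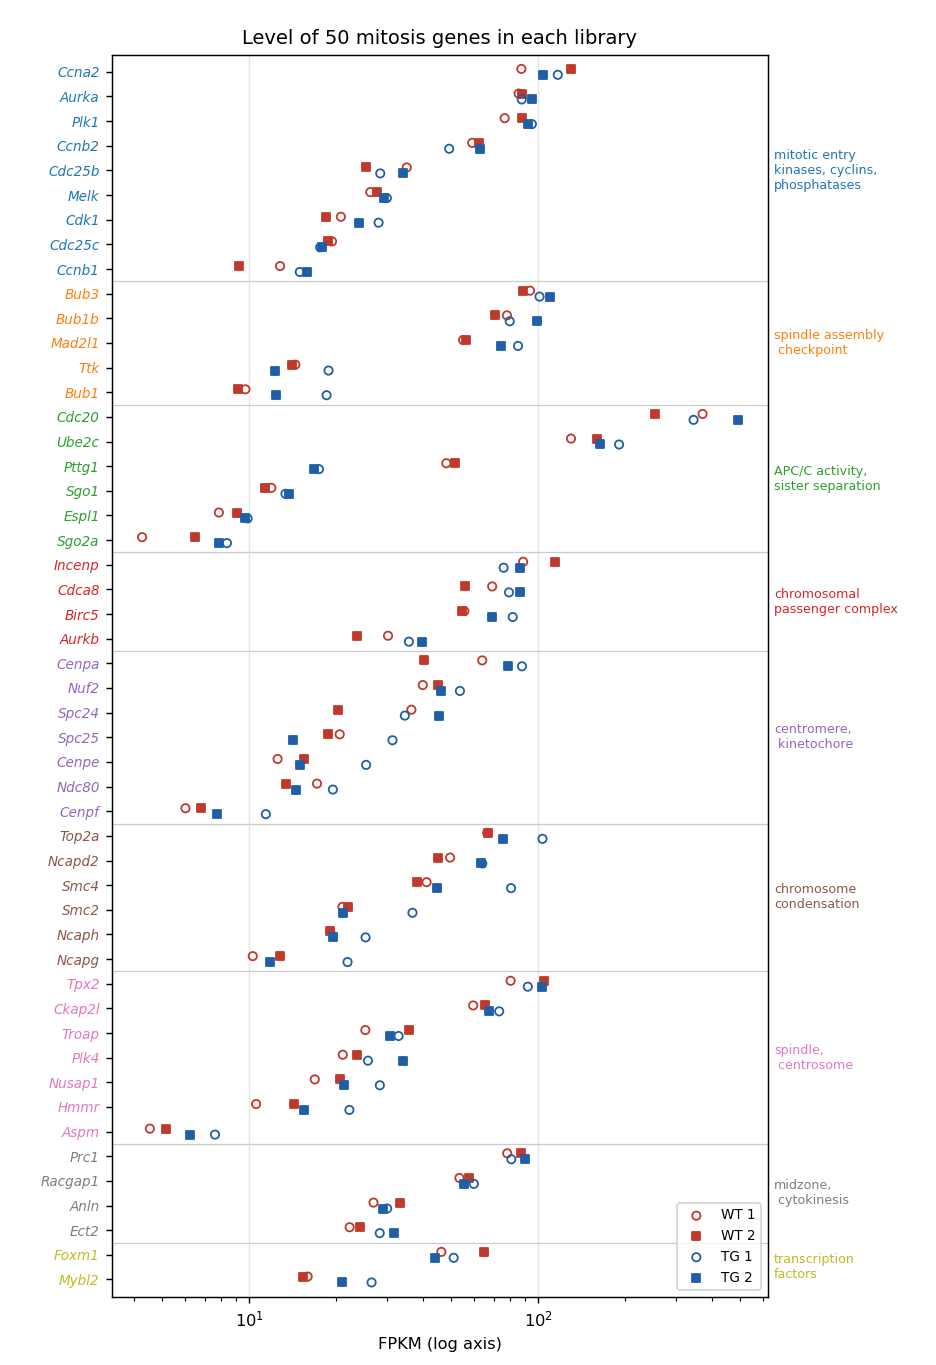
FPKM (log axis) of the 50 mitosis genes in each library, grouped by role and ordered by mean level within a role; red marks WT, blue marks TG, open circles the first and filled squares the other library of a genotype. *Cdc20* stands highest and *Aspm* lowest, and *Pttg1* is the gene whose TG points lie far to the left of its WT points.

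In TG, 1 of the 50 genes passed the test. *Pttg1*, which encodes securin, fell, and no member rose, by limma or by its voom method on the worked-out reads. Among all tested genes 54 (0.469%) were called lower and 70 (0.607%) higher. At an adjusted p under 0.05 alone, *Pttg1* was again the only member, in a background of 1.54% of the tested genes lower and 2.59% higher. At an unadjusted p under 0.05, 12 members (24%) were higher in TG, against 12.7% of the tested genes, and 1 was lower, against 6.88%. The lowest adjusted p among the other 49 members was 0.117, for *Cenpa*.

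Most members lay slightly above WT. The log2 fold change was above 0 in 44 members (88%), compared with 57.5% of all tested genes, and the median was 0.27, compared with 0.07 for all tested genes. In 29 members (58%) both TG libraries were above both WT libraries, against 30.2% of the tested genes, and in 3 members both were below, against 20.3%. These 3 were *Pttg1*, *Incenp* and *Cdc25c*. When each TG library was set against each WT library, the median of the members ranged from 0.11 to 0.37. The median standard error of a member was 0.20. With quantile normalization the log2 fold change was above 0 in 37 members and the median was 0.16, with all genes at -0.01. It was above 0 in 40 members with upper-quartile scaling, with voom or without WT 1, and in 39 without TG 1. In the remaining alternative fits it was above 0 in 43 or 44. Whether the libraries overlapped was judged on the FPKM as given and was not repeated with other scaling.

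**Figure D2:**
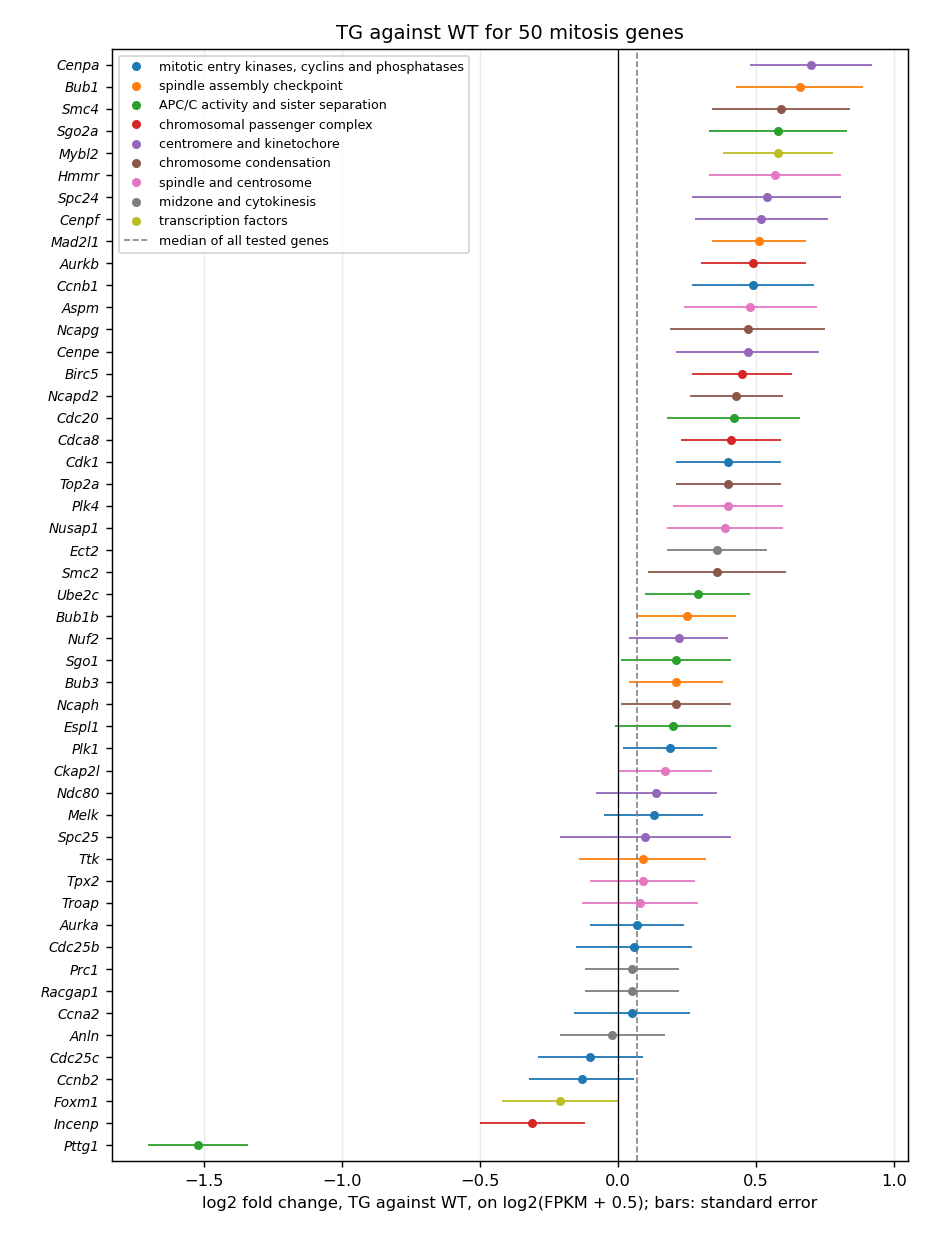
Log2 fold change of TG against WT for each of the 50 mitosis genes, sorted, with the standard error of the limma fit as bars and the role as colour; the dashed line is the median of all tested genes (0.07). *Pttg1* lies at -1.52, the other 49 genes between -0.31 and 0.70, and 44 points lie above 0.

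*Pttg1* (chr11:43420244-43427463 in GRCm38.p6, minus strand; the GENCODE annotation ends the gene at 43426251) had 48.0 and 51.6 FPKM in WT 1 and WT 2, against 17.4 and 16.8 in TG 1 and TG 2. The libraries of a genotype stood close together and the genotypes far apart, with 49.8 ± 2.55 FPKM in WT and 17.1 ± 0.460 in TG (SD, n = 2 libraries each). This is a reduction of 65.7%, with a log2 fold change of -1.52 (SE 0.18, adjusted p = 0.00134). The values rest on 738, 1227, 337 and 301 reads. Securin is the inhibitor and chaperone of separase and a substrate of the APC/C, and its gene is often highly expressed in tumours. In WT the level was 147.3% and 169.3% of the median member and ranked 20 and 19 among the 50; in TG it was 51.7% and 49.3% and ranked 44 and 37. The next lowest member was *Incenp* at -0.31. Among all 11524 tested genes *Pttg1* ranked 77 from the lowest log2 fold change and 44 by p-value, so lower log2 fold changes occurred outside the mitosis genes.

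The result for *Pttg1* kept its direction in all 13 alternative fits, with a log2 fold change between -1.61 and -1.46 and an adjusted p between 1.074e-05 and 0.0455. The call at an adjusted p under 0.01 was lost in 5 of them, among them the fits without WT 1 (0.0359) and without WT 2 (0.0455) and the fit with the replicate number as a block (0.0186).

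Around *Pttg1*, the tested genes *Slu7*, *C1qtnf2* and *Pwwp2a* had log2 fold changes below 0 and *Ttc1* above 0. Of 8 neighbouring genes within 500000 bases, *Atp10b* and *Fabp6* were listed at 0 in all libraries. *Slu7*, a splicing factor gene 7.5 kb away, had 19.96 and 21.5 FPKM in WT and 20.7 and 16.0 in TG. Its genotypes overlapped (log2 fold change -0.18, adjusted p = 0.680). *C1qtnf2*, 48.0 kb away, had 7.66 and 3.22 FPKM in WT and 0.948 and 3.41 in TG, which also overlapped (-1.21, SE 0.48, adjusted p = 0.194). *Pwwp2a* had 4.63 and 4.75 FPKM in WT and 3.57 and 2.92 in TG, lower in both TG libraries (-0.48, adjusted p = 0.340). *Ttc1* was higher in both TG libraries (0.34, adjusted p = 0.317). Neither gene passed the test. *Ccnjl* and *Adra1b* were below the filter. *Ccnjl* had 0.289 and 0.560 FPKM in WT and 0.0655 and 0.0706 in TG, and *Adra1b* had at most 0.899 FPKM.

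The remaining substrates and agents of the APC/C and of sister separation did not pass the test. Separase itself, *Espl1*, had 7.84 and 9.09 FPKM in WT and 9.86 and 9.63 in TG. All TG values were above the WT values, by a log2 fold change of 0.20 (SE 0.21, adjusted p = 0.667). *Cdc20* had 370.3 and 254.5 FPKM in WT and 344.7 and 490.2 in TG. The genotypes overlapped, with TG 2 the highest (0.42, SE 0.24, adjusted p = 0.365). *Ube2c*, the ubiquitin-conjugating enzyme of the APC/C, had 129.8 and 159.2 FPKM in WT and 190.4 and 163.2 in TG, with both TG values above WT (0.29, adjusted p = 0.430). The shugoshins protect cohesin at the centromere. *Sgo2a* had 4.25 and 6.48 FPKM in WT and 8.36 and 7.86 in TG (0.58, SE 0.25, adjusted p = 0.236), and *Sgo1* had a log2 fold change of 0.21. Per length of gene, the *Pttg1* level was 6.13 and 5.68 times that of *Espl1* in WT 1 and WT 2, and 1.77 and 1.74 times in TG 1 and TG 2.

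The kinases, cyclins and phosphatases of mitotic entry lay near WT. Their median log2 fold change was 0.07 over 9 genes, as over all tested genes. This value was not stable: it was 0.17 without WT 2, 0.13 without TG 1 or without TG 2, 0.01 with upper-quartile scaling or voom, and -0.02 with quantile normalization, where 4 of the 9 genes were above 0. *Cdk1*, the mitotic kinase, had 20.7 and 18.4 FPKM in WT and 28 and 24 in TG. It was higher in both TG libraries but did not pass the test (0.40, SE 0.19, adjusted p = 0.282). Its partner *Ccnb1*, cyclin B1, had 12.8 and 9.20 FPKM in WT and 14.9 and 15.9 in TG. The genotypes did not overlap (0.49, SE 0.22, adjusted p = 0.253). *Ccnb2*, cyclin B2, had 59.1 and 62.3 FPKM in WT and 49.2 and 62.8 in TG, with both WT values inside the TG range (-0.13, adjusted p = 0.767). *Ccna2*, cyclin A2, which acts in S phase and G2, had 87.4 and 129.5 FPKM in WT and 116.8 and 103.5 in TG. Here the WT libraries differed more from each other than the genotypes did (0.05, adjusted p = 0.930).

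The polo-like and Aurora kinases drive centrosome maturation and spindle assembly. *Plk1* had 76.5 and 87.9 FPKM in WT and 95.0 and 92.2 in TG, with TG above WT (0.19, adjusted p = 0.603). *Aurka*, Aurora A, had 85.5 and 88.1 FPKM in WT and 87.6 and 95.2 in TG, and overlapped (0.07, adjusted p = 0.861). The CDC25 phosphatases switch CDK1 on. *Cdc25c* had 19.3 and 18.8 FPKM in WT and 17.6 and 17.9 in TG, lower in both TG libraries by a log2 fold change of -0.10 (SE 0.19, adjusted p = 0.822), and *Cdc25b* and the kinase gene *Melk* had log2 fold changes of 0.06 and 0.13.

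All 5 checkpoint genes had log2 fold changes above 0, with a median of 0.25, and none passed the test. The median was 0.11 with quantile normalization, 0.38 without TG 1 and 0.39 without TG 2. In 4 of the 5 genes both TG libraries were above both WT libraries, against 58% of the members and 30.2% of all tested genes. A log2 fold change above 0 was found in 88% of the members and 57.5% of all tested genes. *Bub1*, the kinetochore kinase that starts checkpoint signalling, had 9.69 and 9.12 FPKM in WT and 18.5 and 12.4 in TG. The WT values were close and the TG values far apart (0.66, SE 0.23, adjusted p = 0.145). *Mad2l1*, MAD2, which binds CDC20 and holds it from the APC/C, had 54.9 and 56.3 FPKM in WT and 85.1 and 74.4 in TG, a log2 fold change of 0.51 (SE 0.17, adjusted p = 0.136). *Bub1b*, BUBR1, had 77.9 and 71.1 FPKM in WT and 79.6 and 99.0 in TG. TG 1 stood close to WT 1 and TG 2 above it (0.25, adjusted p = 0.5001). *Bub3*, the partner of both BUB kinases, had 93.6 and 88.5 FPKM in WT and 101.0 and 109.5 in TG (0.21, adjusted p = 0.562). *Ttk*, the kinase MPS1, was the checkpoint gene whose genotypes overlapped, with 14.4 and 14.1 FPKM in WT and 18.8 and 12.3 in TG (0.09, adjusted p = 0.875).

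The chromosomal passenger complex corrects wrong attachments at the centromere. Its subunits did not lie on the same side of WT. *Aurkb*, its kinase Aurora B, had 30.2 and 23.6 FPKM in WT and 35.7 and 39.6 in TG (0.49, SE 0.19, adjusted p = 0.1995). *Birc5*, survivin, had 55.5 and 54.3 FPKM in WT and 81.6 and 69.0 in TG (0.45, SE 0.18, adjusted p = 0.194). For both genes, and for *Cdca8* (borealin; 0.41), each TG library was above each WT library. This held for 58% of the members and 30.2% of all tested genes, and the reverse for 6% and 20.3%. *Incenp*, the scaffold of the complex, had 88.6 and 113.9 FPKM in WT and 75.9 and 86.2 in TG, lower in both TG libraries (-0.31, SE 0.19, adjusted p = 0.405).

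The 7 centromere and kinetochore genes had log2 fold changes of 0.10 to 0.70, with a median of 0.47. *Cenpa*, the histone H3 variant that marks centromeres, had 64.0 and 40.3 FPKM in WT and 87.8 and 78.3 in TG. Both TG values were above WT, and the WT values differed by 1.59 times (0.70, SE 0.22, adjusted p = 0.117). With voom *Cenpa* had an adjusted p of 0.0428. *Cenpf*, a large kinetochore protein, had 6.01 and 6.80 FPKM in WT and 11.4 and 7.70 in TG (0.52, adjusted p = 0.274). The NDC80 complex, which grips the microtubule, has 4 subunits. They had log2 fold changes of 0.14 for *Ndc80*, 0.22 for *Nuf2*, 0.54 for *Spc24* and 0.10 for *Spc25*, and the genotypes overlapped in all but *Nuf2*.

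Condensin and topoisomerase II shape the mitotic chromosome. All 6 genes had log2 fold changes above 0, against 88% of the members and 57.5% of all tested genes. They ranged from 0.21 to 0.59, with a median of 0.41. *Smc4*, the condensin ATPase, had 41.0 and 38.1 FPKM in WT and 80.5 and 44.4 in TG. TG 1 stood far above the other 3 libraries (0.59, SE 0.25, adjusted p = 0.230). *Top2a* had 66.6 and 66.8 FPKM in WT and 103.4 and 75.4 in TG, again with TG 1 the highest (0.40, SE 0.19, adjusted p = 0.285). *Ncapd2* was alike in the TG libraries, with 49.5 and 44.9 FPKM in WT and 64.0 and 63.1 in TG (0.43, SE 0.17, adjusted p = 0.204). The median of the 6 genes was 0.10 without TG 1 and 0.69 without TG 2, and that of the kinetochore genes was 0.12 and 0.66, and 0.31 without WT 2. Without TG 2, *Smc4* passed an adjusted p of 0.05 (1.02, adjusted p = 0.0373), and without TG 1 its log2 fold change was 0.17.

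The 7 spindle and centrosome genes had a median of 0.39, which was 0.19 without TG 1, 0.23 without TG 2 and 0.25 without WT 1. *Tpx2*, the activator of Aurora A, had 80.2 and 104.5 FPKM in WT and 92.0 and 103.4 in TG, and overlapped (0.09, adjusted p = 0.845). *Aspm* had 4.52 and 5.13 FPKM in WT and 7.604 and 6.24 in TG, with TG above WT (0.48, adjusted p = 0.298). *Hmmr*, a microtubule-binding protein, had a log2 fold change of 0.57 (SE 0.24, adjusted p = 0.218), and *Plk4*, the kinase that starts centriole duplication, had 0.40. In the midzone and cytokinesis group the median was 0.05, but 0.13 without WT 2, -0.02 without WT 1, with upper-quartile scaling or with voom, and -0.07 with quantile normalization, and *Prc1*, *Racgap1* and *Anln* lay between -0.02 and 0.05. *Ect2*, which activates RhoA at the cell equator, had 0.36 (adjusted p = 0.315).

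Of the transcription factors, *Mybl2*, B-MYB, had 15.9 and 15.4 FPKM in WT and 26.5 and 20.9 in TG, higher in both TG libraries (0.58, SE 0.20, adjusted p = 0.142). *Foxm1* had 46.2 and 65.0 FPKM in WT and 50.9 and 43.8 in TG, and overlapped (-0.21, SE 0.21, adjusted p = 0.630). These factors act on many of the genes above, and neither passed the test.

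The libraries of a genotype differed from each other in a number of members. Among the 50 genes, 12 (24%) were over 1.3 times as high in TG 1 as in TG 2, against 20.4% of the tested genes, and 3 were over 1.3 times as high in TG 2, against 13.9%. The ratio of TG 1 to TG 2 was 2.21 for *Spc25*, 1.85 for *Ncapg*, 1.81 for *Smc4*, 1.74 for *Smc2* and 1.69 for *Cenpe*. Between the WT libraries, 5 members were over 1.3 times as high in WT 1, against 18.4%, and 6 in WT 2, against 17.1%. *Spc24* had the largest ratio of WT 1 to WT 2, at 1.80, followed by *Cenpa*, *Cdc20*, *Ccnb1* and *Cdc25b*. Longer members had a higher TG 1 to TG 2 ratio (Spearman's rho 0.33 over 50 genes) and a lower WT 1 to WT 2 ratio (-0.39). For all tested genes these values were 0.06 and -0.30. With GC content, the TG 1 to TG 2 ratio had a rho of -0.43 in the members and -0.22 over the 10902 tested genes with a GC value, and the WT 1 to WT 2 ratio 0.10 and 0.19. The log2 fold change of TG against WT had a rho of 0.20 with length and -0.34 with GC content in the members, and of -0.26 and 0.00 over the tested genes. As genes of the same libraries are not independent, these correlations are given as a description.

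**Figure D3:**
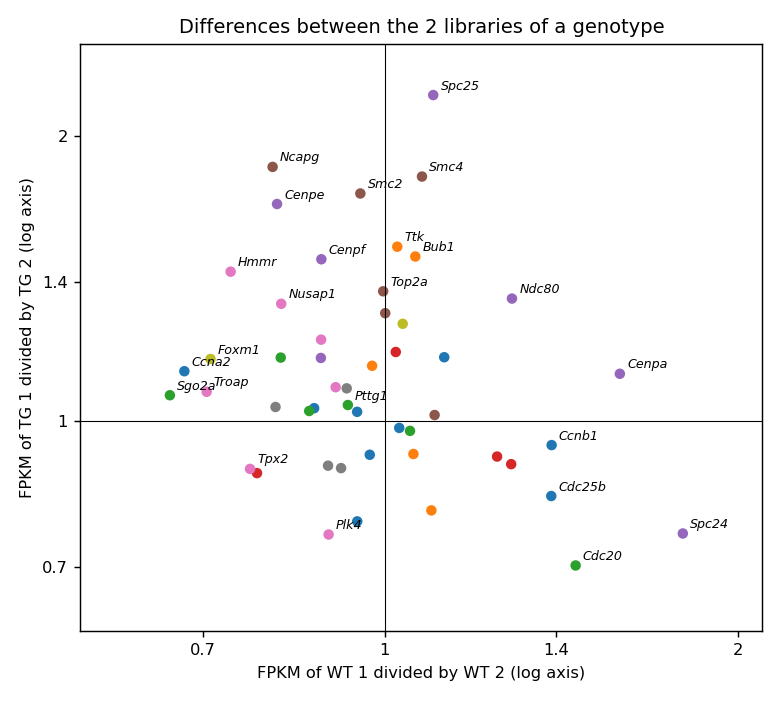
Ratio of the FPKM of TG 1 to TG 2 (vertical log axis) against the ratio of WT 1 to WT 2 (horizontal log axis) for the 50 mitosis genes, coloured by role. *Spc25* lies highest at 2.21 and *Spc24* farthest to the right at 1.80, whereas *Pttg1* lies near the crossing of the lines at 1.

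The members are spread over 15 chromosomes. On Chr 1 there were 4, *Aspm*, *Cenpf*, *Nuf2* and *Sgo2a*, with log2 fold changes of 0.22 to 0.58 and no adjusted p below 0.236. In all 4 each TG value was above each WT value, which held for 58% of the members and 30.2% of all tested genes. The share among all genes of Chr 1 was not worked out. On Chr 11 there were 5, and *Aurkb*, *Birc5*, *Hmmr* and *Top2a* there had log2 fold changes of 0.40 to 0.57, opposite in sign to *Pttg1*. In 16 members an exon overlaps another annotated gene, such as *Elovl1* for *Cdc20*, *Exosc9* for *Ccna2*, *Tnnc2* for *Ube2c* and, on the same strand, *Tex52* for *Foxm1*. The libraries were strand-specific, but the sources used here do not state whether reads were counted by strand. The values of members overlapped from the opposite strand are uncertain to that extent. *Foxm1*, *Ncapd2* and *Top2a* overlap genes on the same strand, which counting by strand would not separate, so their values are uncertain either way. No exon of *Pttg1* overlaps another gene.

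A further 123 mitotic genes were examined in 6 lists, and all passed the filter. None was called. At an adjusted p under 0.05 alone 2 (1.63%) were higher and 1 (0.813%) lower, against 2.59% and 1.54% of all tested genes. At an unadjusted p under 0.05 there were 19 (15.4%) and 4 (3.25%), against 12.7% and 6.88%. By this count the share of higher genes was near the background. By direction alone, 84 of the 123 had a log2 fold change above 0, against 57.5% of all tested genes. Both TG libraries were above both WT libraries in 53 of the 123 and below in 14, against 30.2% and 20.3%. *Cks2*, the small subunit that docks CDK1 to its substrates, had 12.6 and 13.2 FPKM in WT and 41.9 and 24.4 in TG. Both TG values were above WT, and TG 1 far above TG 2 (1.28, SE 0.25, adjusted p = 0.0189). *Pmf1*, a subunit of the MIS12 kinetochore complex, had 107.0 and 113.7 FPKM in WT and 202.4 and 165.8 in TG (0.73, SE 0.18, adjusted p = 0.0499). *Psrc1*, a spindle protein, had 60.8 and 58.8 FPKM in WT and 29.8 and 36.3 in TG (-0.85, SE 0.18, adjusted p = 0.0286). The median over the 123 genes was 0.15. It ranged from -0.01 in the 24 other spindle, centrosome and cytokinesis genes to 0.37 in the 15 other mitotic kinases, phosphatases and checkpoint genes. The 17 APC/C subunits and regulators had log2 fold changes from -0.13 (*Fbxo5*) to 0.66 (*Anapc13*), and the 20 MuvB, pocket protein, E2F and NF-Y genes from -0.63 (*Lin52*) to 0.51 (*Lin54*).

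In 14 genes of S phase and proliferation, *Pcna*, the sliding clamp of DNA polymerase, rose. It had 185.2 and 151.7 FPKM in WT and 492.4 and 372.8 in TG (1.35, SE 0.20, adjusted p = 0.00562). The other 13 lay between -0.33 (*Mcm6*) and 0.54 (*Cdt1*), and none had an adjusted p under 0.05. *Mki67*, the Ki-67 marker of cycling cells, had 32.4 and 45.5 FPKM in WT and 42.6 and 34.6 in TG. Its genotypes overlapped, and the log2 fold change was 0.00 (SE 0.21, adjusted p = 0.999).

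**Figure D4:**
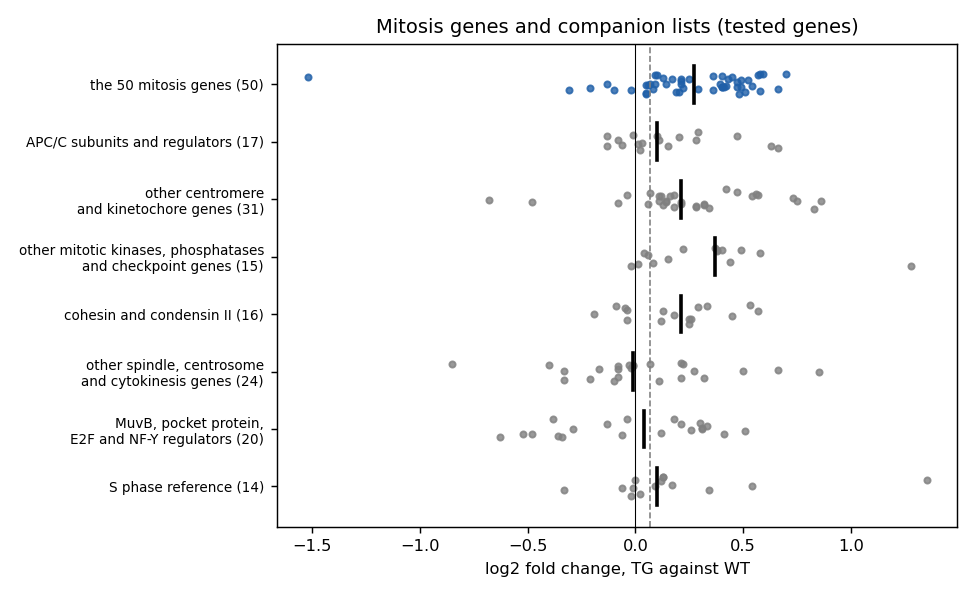
Log2 fold change of TG against WT for the 50 mitosis genes (blue) and the genes of 7 further lists (grey), 1 point a gene with vertical jitter; black bars are medians and the dashed line is the median of all tested genes (0.07). *Pttg1* is the lowest point at -1.52, and *Pcna* in the S phase list and *Cks2* among the kinases are the highest, at 1.35 and 1.28.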

How the data were processed

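RNA-seq of 2 WT and 2 TG libraries was analysed. The authors aligned paired-end reads of polyadenylated RNA to mm10 with Rsubread, made gene counts and turned them into FPKM. The deposited values are FPKM, 1 column per library. As the authors' DESeq test needs counts, limma 3.58.1 in R 4.3.3 (lmFit, eBayes with a variance trend) was run on log2(FPKM + 0.5), a scale that understates changes of low genes, with Benjamini-Hochberg adjustment over 11524 genes and the thresholds of the study. The fit was tested on simulated data with the same spread set for every gene and changes larger than those of the members. This does not show how the fit performs on these libraries. An exact permutation test of 2 against 2 cannot go below 0.333.

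Library totals and whole reads were worked out from ratios of FPKM values for 15528 of the 15530 genes above 0. They sum to 103.1% to 103.3% of the totals, so the reads of some genes are too high. They were used only for depth and for voom. Genes were placed by symbol with RefSeq (GRCm38.p6), and exon overlaps are from GENCODE vM21. Motifs were searched in 1 RefSeq promoter per gene.

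The members, the further lists and the markers were chosen with earlier results of these data known. Values in every library are given for 18 core genes, the 5 highest and lowest levels, the 5 largest changes each way and members with an adjusted p under 0.05. *Ncapd2*, the neighbours of *Pttg1* and *Cdt1* were chosen after their values were seen. From each further list, genes with an adjusted p under 0.05 and the extremes may be named. Alternatives were other pseudocounts (1 and 0.1) and filters (any value above 0, or a mean of 1 FPKM), a fit with no trend, upper-quartile or quantile scaling, voom, the replicate number as a block, leaving out each library, and looser thresholds (an adjusted p of 0.05, or 0.5 on the log2 scale).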

Additional observations from a re-analysis of the deposited data

How the results depend on the processing

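No alternative called a member higher in TG. The call of *Pttg1* was lost (0 members lower) with all genes above 0, without the variance trend, with the replicate block and in 2 of the 4 fits that left out a library (range 0 to 1), while its direction held in every one of these. Among the further mitotic genes, 1 was called higher at an adjusted p under 0.05 with the log2 fold change limit of 1 kept, and 0 to 1 with a library left out. Over all tested genes, the 70 higher and 54 lower calls became 0 and 1 with all genes above 0, 3 and 6 without the variance trend, 12 and 8 with the replicate block, 122 and 149 with voom, and 229 and 121 at an adjusted p under 0.05 with the same limit of 1, and they ranged from 0 to 66 and from 1 to 47 with a library left out. The cause of these changes was not tested. The median of the members, 0.273, was 0.155 with quantile normalization and 0.178 to 0.345 with a library left out. In 36 members the sign of the log2 fold change held in all 13 alternative fits. Where an arm held 1 library, limma assumed that it varied like the other genotype. Libraries with the same number did not deviate together (correlation -0.0276 over 11524 genes). The correlation cannot show whether the numbers are a pairing, as paired libraries need not share a shift. The sources used here do not say.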
